A study of Mus musculus with 4 samples.

Results

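Genes of the endothelin, angiotensin and adrenomedullin pathways were followed across the endothelial and mural cells of the mouse left ventricle. The 10 genes, Edn1, Ece1, Ednra, Ednrb, Ace, Agtr1a, Adm, Calcrl, Ramp2 and Ramp3, were chosen by their symbols among 31253 gene identifiers, and each was found once. Single-cell RNA sequencing (10x Genomics, 3′ counting of unique molecular identifiers, UMIs) had been run on RFP-positive cells sorted from the left ventricle, in 2 NC libraries and 2 HFpEF libraries. NC mice ate a chow diet with 10% of energy from fat and drank normal water. HFpEF mice, a model of heart failure with preserved ejection fraction, ate 60% fat and drank 0.5 mg/ml of the nitric oxide synthase inhibitor L-NAME, and both regimens ran for 20 weeks.

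All mice came from a C57BL/6N-based cross with tamoxifen-induced Cdh5-CreER, an R26-stop-tdTomato reporter and floxed Scarb1, the gene of scavenger receptor SR-B1. Mural and immune cells were recovered beside the intended endothelial cells (ECs) of a sort for cells that had switched on the reporter through the Cdh5 promoter, and they are a remnant, not a sample of those types. The study describes mice with 1 and with 2 floxed Scarb1 alleles under each diet, but the labels do not give the genotype, the age or the number of mice behind a library. Scarb1 itself was at 116 and 49.0 CPM (UMIs of the gene among 1000000 of the cells) in capillary ECs of NC 1 and NC 2, and at 115 and 53.9 CPM in HFpEF 1 and HFpEF 2, so that the library numbered 1 was the higher under both diets. The 2 libraries of a diet measure spread between libraries, which may be genetic, biological or technical.

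Endothelin-1 is made as a precursor and cut to its active form by endothelin-converting enzyme, the product of Ece1. It constricts vessels through the ETA receptor (Ednra) on smooth muscle and pericytes, while the ETB receptor (Ednrb) on ECs clears the peptide and triggers nitric oxide release. Angiotensin-converting enzyme (Ace) sits on the endothelial surface and forms angiotensin II, which acts on the AT1 receptor (Agtr1a). Adrenomedullin (Adm) relaxes vessels and tightens the endothelial barrier through Calcrl, a receptor that works only with a partner, Ramp2 or Ramp3.

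The 2 ligand genes are shown by the 250 bases upstream of their RefSeq start (GRCm38.p6, 5′ to 3′ on the plus strand), since their patterns over the vessel tree described next were opposite. Edn1 lies at chr13:42301476-42307990 and Adm at chr7:110627661-110629820 (GRCm38, both on the plus strand), and the windows are chr13:42301226-42301475 and chr7:110627407-110627656. Capitals mark the motif GCGTG, a core of the hypoxia response element, here read on the other strand as CACGC.
Edn1: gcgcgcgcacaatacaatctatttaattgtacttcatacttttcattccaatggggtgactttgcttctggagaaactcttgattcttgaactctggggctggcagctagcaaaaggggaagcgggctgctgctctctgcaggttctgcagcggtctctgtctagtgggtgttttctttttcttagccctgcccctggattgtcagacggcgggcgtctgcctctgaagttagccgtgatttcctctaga
Adm: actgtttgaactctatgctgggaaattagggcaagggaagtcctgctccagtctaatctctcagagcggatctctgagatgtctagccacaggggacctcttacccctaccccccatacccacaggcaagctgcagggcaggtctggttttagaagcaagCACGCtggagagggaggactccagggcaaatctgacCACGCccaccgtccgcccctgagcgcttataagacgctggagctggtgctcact
The Adm window held the motif at 90 and at 54 bases before the start, and the Edn1 window held none. Windows were listed for 8 of the 10 genes, and GCGTG was in at least 1 window of 4 of them, Ece1, Ednrb, Adm and Ramp3. The motif is common, since 28.2% of 32851 promoter windows of this length held it on either strand. Of the other cores searched on both strands, ACGTG (16.6% of promoters) was found for Ece1, TATAAA (12.4%) for Ace at 31 bases before the start, and TGANTCA (6.75%) and AGATAA (9.99%) for none. ACGTG and GCGTG can share bases where one follows the other, and CACGTG counts for ACGTG on both strands. A match describes letters and not a bound site.

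After removal of cells with 200 genes or fewer or with 20% or more mitochondrial UMIs, 40154 of 41843 cells remained, 5454 to 20882 per library. Depth differed by diet, with a median of 3754 and 4127 UMIs per cell in the NC libraries against 1736.5 and 1619 in the HFpEF libraries, and with 10801149 to 47117650 UMIs per library. Clustering without the 10 genes gave 4454 to 17066 capillary ECs, 502 to 2136 artery ECs and 118 to 521 vein ECs per library. The same step gave 35 to 65 pericyte-like cells and 12 to 74 smooth muscle-like cells. It also gave 201 to 550 cells per library with both mural and endothelial markers, a mixed class that was not among those compared. The pericyte-like cells carried the 10 pericyte markers at a summed 24702 to 30982 CPM and the 8 endothelial markers at 770.5 to 1241 CPM, against 6492 to 7407 CPM in capillary ECs. Cdh5, which defines ECs, was at 46.7 to 141 CPM in pericyte-like cells. The 7 smooth muscle markers were at a summed 832 to 1243 CPM there, against 85.5 to 128 CPM in capillary ECs, although Cnn1 and Actg2 were at 0. The 7 capillary EC markers were at a summed 7028 to 8032 CPM in pericyte-like cells, against 39069 to 49824 CPM in capillary ECs. The part of such RNA in the levels of EC genes in pericyte-like cells was not tested. Capillary ECs in turn held 116 to 191 CPM of the pericyte markers. Erythroid markers there were at 474 and 506 CPM under NC but at 1011 and 3384 CPM under HFpEF, and 154 barcodes occurred in more than 1 library. All levels below are CPM, the UMIs of a gene among 1000000 UMIs of its class in a library, and errors over 4 libraries are SDs.

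Edn1 was an artery gene among the vascular ECs. Its level in artery ECs was 160.4 CPM in NC 1, 205 in NC 2, 122 in HFpEF 1 and 247 in HFpEF 2, a mean of 183 ± 54.2 CPM (SD, n = 4). Capillary ECs held 16.9, 15.6, 12.2 and 32.9 CPM in the same order, and no capillary library came near an artery library. In vein ECs the values were 21.7, 31.4, 92.9 and 28.4 CPM, so that HFpEF 1 stood apart from the other libraries, on 25 UMIs. Within a library, artery ECs exceeded vein ECs by 2.24 ± 1.25 on the log2 scale in 4 of 4 libraries, whereas vein and capillary ECs were not separated (0.98 ± 1.32, higher in 3 of 4). Pericyte-like cells held 1 Edn1 UMI in all. When cells were assigned one by one by marker UMIs, artery exceeded vein ECs by 0.34 ± 1.29 only, in 3 of 4 libraries. That gate put 9934 cells in the artery class against 4169 by clusters, and capillary ECs by clusters carried the artery markers at 708 to 848 CPM.

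Adm, the other ligand gene, was highest in capillary ECs among the vascular ECs and pericyte-like cells. Capillary ECs held 120.0, 123, 170.0 and 124 CPM (134 ± 23.8, n = 4), and artery ECs 21.3, 14.8, 26.2 and 34.6 CPM. Vein ECs lay between, at 51.0 to 64.9 CPM, and exceeded artery ECs by 1.27 ± 0.40 on the log2 scale in 4 of 4 libraries. Pericyte-like cells, at 52.8 to 112 CPM on 27 UMIs, were not separated from vein ECs (0.21 ± 0.40, higher in 3 of 4). The order of vein and artery ECs turned under the per-cell gate (vein minus artery -0.31 ± 0.36). Pericyte-like cells fell below vein ECs in every library under that gate (-3.23 ± 3.38).

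**Figure D1:**
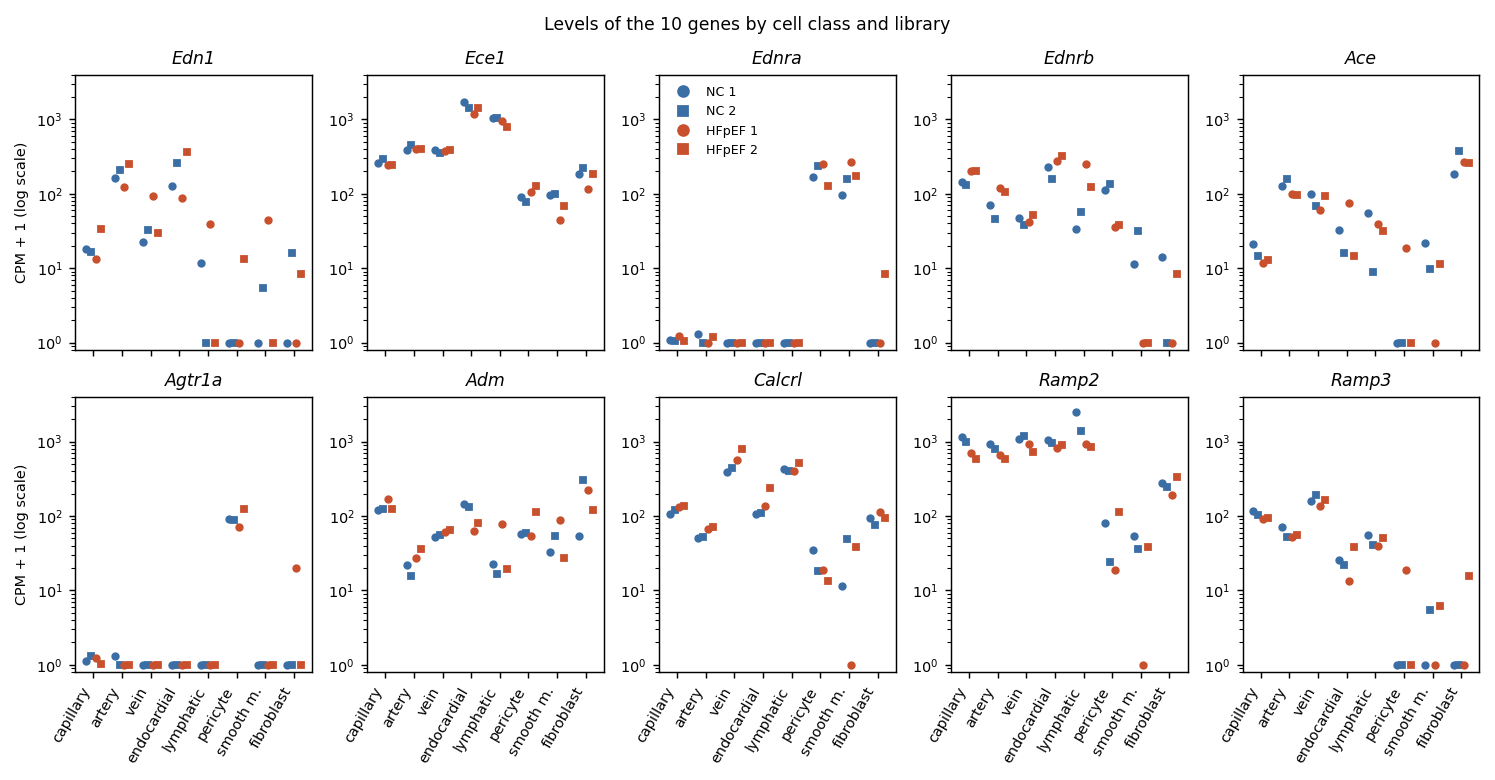
Levels of the 10 genes in each library (points, blue NC, orange HFpEF; circles library 1, squares library 2) by cell class, as CPM + 1 on a log scale. Among capillary, artery and vein ECs, Edn1 was highest in artery (183 ± 54.2 CPM), Adm in capillary (134 ± 23.8 CPM) and Calcrl in vein ECs, and Ednra and Agtr1a were at or near 0 in every EC class.

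The converting enzymes were both higher in artery and vein ECs than in capillary ECs, and neither was limited to arteries. Ece1 was read in every EC class, at 382, 445, 398 and 394 CPM in artery ECs and 385, 351, 371 and 381 CPM in vein ECs, which did not differ beyond their spread (0.12 ± 0.15, 3 of 4). Capillary ECs held 245 to 290.1 CPM, below vein ECs in every library (0.52 ± 0.17). The level in pericyte-like cells was 99.0 ± 20.7 CPM. Ace had a steeper gradient, with 127, 159, 97.4 and 96.7 CPM in artery ECs and 20.4, 13.4, 10.7 and 11.9 CPM in capillary ECs. Vein ECs held 97.2, 67.0, 59.4 and 91.2 CPM, so their range overlapped with that of artery ECs although each artery value was higher within its library (0.60 ± 0.49). The vein-to-capillary step of Ace was 2.41 ± 0.30 in 4 of 4 libraries. Under the per-cell gate the artery-to-vein step turned to -0.98 ± 0.45 for Ace and to -0.19 ± 0.073 for Ece1.

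Endothelin receptors were divided between the 2 compartments. Ednra was at 169, 233, 246 and 124 CPM in pericyte-like cells and at 94.6, 158, 264 and 174 CPM in smooth muscle-like cells, from 79 and 84 UMIs. ECs were near 0, with 7 UMIs among 90946418 in capillary ECs, 2 in artery ECs and 0 of 3733389 in vein ECs, which allows up to 0.804 CPM. Ednrb, the endothelial receptor, was at 141, 132, 201 and 204 CPM in capillary ECs. Artery ECs held 70.2, 44.9, 119.9 and 105 CPM and vein ECs 36.8 to 50.01 CPM, so that Ednrb and Edn1 had opposite orders between capillary and artery ECs. The capillary-to-artery step of Ednrb was 1.06 ± 0.34 in 4 of 4 libraries and 0.19 ± 0.11 under the per-cell gate, also in 4 of 4. Pericyte-like cells carried Ednrb too, with values that differed widely (113, 134, 35.2 and 37.2 CPM). Neither artery ECs and pericyte-like cells (0.24 ± 1.62) nor pericyte-like cells and vein ECs (0.62 ± 1.11) were separated.

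Agtr1a, the AT1 receptor gene, was a pericyte gene in these data. Pericyte-like cells held 90.3, 87.6, 70.4 and 124 CPM from 37 UMIs, with the libraries of both diets intermixed. Smooth muscle-like cells held 0 of 535308 UMIs, which allows up to 5.604 CPM, and the EC classes held 14 UMIs in capillary and artery ECs together and none in vein ECs. The pericyte-to-capillary step was 6.30 ± 0.46 on the log2 scale with 1 CPM added to both sides. Smooth muscle-like cells carried their own markers at 16586 to 20723 CPM and Kcnj8, a pericyte channel gene, at 0 to 73.6 CPM, against 1775 to 2095 CPM in pericyte-like cells. Their summed pericyte markers were nevertheless at 14189 to 20193 CPM, and the part of pericyte RNA in their levels was not tested. These intervals and limits cover counting error only.

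**Figure D2:**
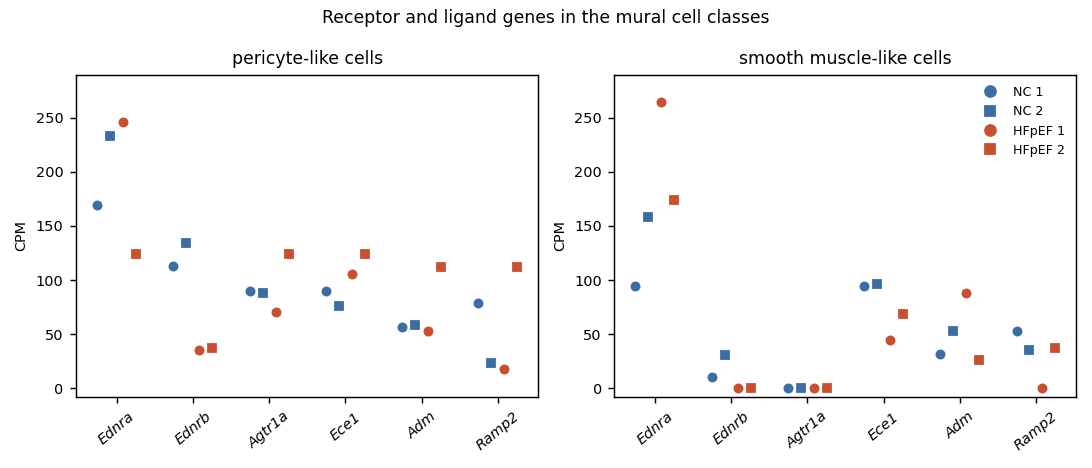
Levels of 6 genes (CPM, linear axis) in pericyte-like cells and smooth muscle-like cells of each library (blue NC, orange HFpEF; circles library 1, squares library 2). Agtr1a lay between 70.4 and 124 CPM in pericyte-like cells and at 0 in smooth muscle-like cells, while Ednra was present in both.

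Among the adrenomedullin receptor genes, Calcrl marked the venous end. Vein ECs held 393, 437, 568 and 804 CPM, capillary ECs 104 to 135 CPM and artery ECs 50.4 to 70.2 CPM. The steps were 2.11 ± 0.32 from vein to capillary and 1.04 ± 0.13 from capillary to artery, in 4 of 4 libraries each, and the latter was 0.27 ± 0.073 under the per-cell gate. Among vascular ECs the ligand Adm was thus highest in capillary ECs and its receptor Calcrl in vein ECs. Ramp2 was near even over the vascular ECs, at 858 ± 262 CPM in capillary, 738 ± 146 in artery and 976 ± 194 in vein ECs. Vein and capillary ECs did not differ beyond their spread for Ramp2 (0.22 ± 0.23), and the capillary and artery ranges overlapped, although capillary ECs were higher in each library (0.18 ± 0.17). Pericyte-like cells held 17.6 to 112 CPM of Ramp2. Ramp3 followed Calcrl in order, at 137 to 191 CPM in vein, 89.4 to 116 in capillary and 51.4 to 70.2 in artery ECs, with steps of 0.69 ± 0.20 and 0.81 ± 0.11. The vein-to-capillary step of Ramp3 was 0.13 ± 0.56 under the per-cell gate, in 3 of 4 libraries.

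Over the 10 genes, 30 steps between classes adjacent in level were computed, and 20 were above 0 in all 4 libraries. With 4 libraries the two-sided exact sign-flip test can go no lower than p = 0.125. The classes were ordered by the mean of these same values. No step could thus be below 0 on average, and the counts are a description only. Ranges did not overlap in 17. Both counts include the Ednra step from capillary to vein ECs. It sets 7 UMIs in capillary ECs against 0 in vein ECs, where a count of 0 allows up to 0.804 CPM.

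Within the EC classes the ligands and enzymes were not uniform. Of 3 artery clusters, the one led by Mgp, Mt1 and Clu (66 to 372 cells per library) held most Edn1, at 452, 395, 309 and 396 CPM. A cluster led by Fbln5 and Nebl held 123, 151, 83.8 and 222 CPM, and the third, led by Fbln5 and Cox4i2, 36.6 to 169 CPM. Ace was likewise at 351, 387, 199 and 254 CPM in the Mgp cluster against 56.5 to 93.8 and 37.8 to 77.3 CPM in the other two. The 19 capillary clusters were ranked by the mean of log2(CPM + 1). Edn1 had its highest mean in one led by Pth1r and Adamts5, at 51.6, 78.03, 19.2 and 68.8 CPM on 8, 7, 7 and 105 UMIs. The next, led by Cpm and Scgb3a1, held 32.3, 33.3, 26.5 and 81.6 CPM on 56, 55, 10 and 230 UMIs. It was the higher of these clusters in both HFpEF libraries. The lowest mean of Edn1 was in one led by Gm8797, at 0, 0, 3.25 and 29.9 CPM on 0, 0, 2 and 52 UMIs. That rank rests on shallow NC sums, and a cluster led by Aqp1 and Adh1 was low in every library, at 4.46 to 9.22 CPM. Adm had its highest mean in the Gm8797 cluster, where it was itself a leading gene, at 251, 315, 312 and 185 CPM. Its lowest was in the Pth1r cluster, at 32.3, 11.1, 32.9 and 36.7 CPM on 5, 1, 12 and 56 UMIs. The Gm8797 cluster held 63 and 35 cells in NC but 383 and 1316 in HFpEF. Calcrl and Ramp3 were both highest in a capillary cluster led by Cysltr1 and Rspo1, at 150 to 267 and 155 to 223 CPM. These clusters come from the same libraries and were not tested against each other.

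**Figure D3:**
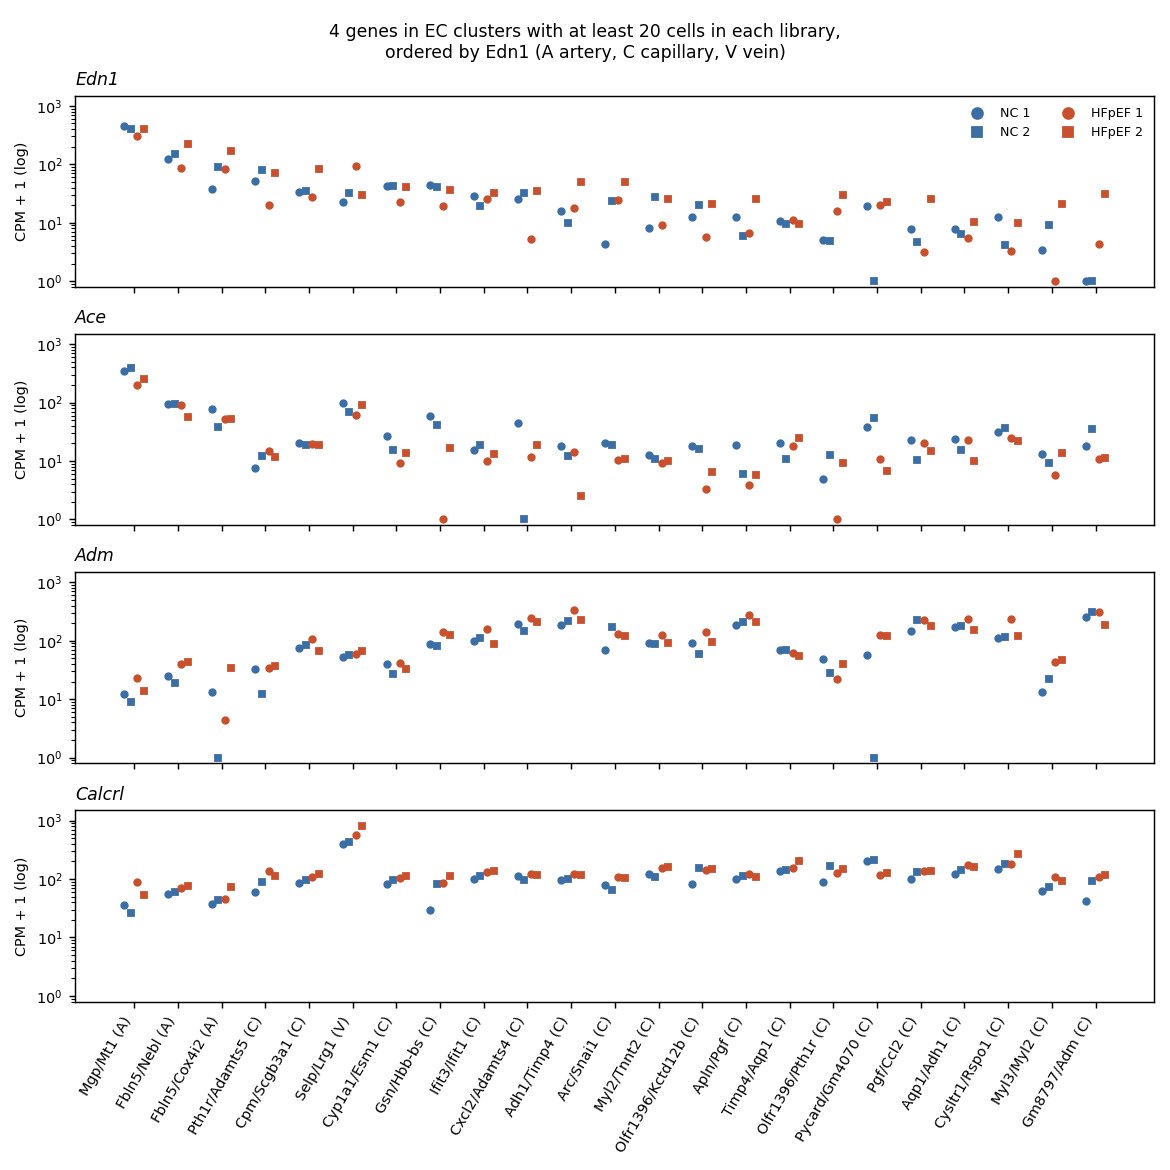
Edn1, Ace, Adm and Calcrl (CPM + 1, log scale) in each library (blue NC, orange HFpEF; circles library 1, squares library 2) for EC clusters with at least 20 cells in every library, named by their leading genes and ordered by Edn1. The Mgp-led artery cluster held 309 to 452 CPM of Edn1 and 199 to 387 CPM of Ace, the Selp-led vein cluster 393 to 804 CPM of Calcrl.

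The question of the diets was addressed with UMI counts summed per library and class. In capillary ECs Ednrb was higher and Ramp2 lower in HFpEF, while Edn1 was not separated. Ednrb gave a log2 fold change of 0.57 ± 0.10 (SE, n = 2 libraries per diet), a fold of 1.49, from 141 and 132 CPM in NC to 201 and 204 CPM in HFpEF, without overlap. The edgeR quasi-likelihood test gave an adjusted p = 0.11. Ramp2 was at 1153 and 995 CPM in the NC libraries against 693 and 589 CPM under HFpEF, a fold of 0.599 (log2 -0.74 ± 0.14, adjusted p = 0.11). Ace was at a log2 fold change of -0.56 ± 0.21 (adjusted p = 0.232), Calcrl at 0.25 ± 0.11 (0.282) and Adm at 0.28 ± 0.16 (0.385), the last with HFpEF 2 at 124 CPM beside 123 in NC 2. Ramp3 (-0.24 ± 0.11) and Ece1 (-0.15 ± 0.11) were lower without passing the test. Edn1 was at 0.56 ± 0.36 (adjusted p = 0.443), the HFpEF libraries lying on either side of NC at 12.2 and 32.9 CPM, and without HFpEF 2 its direction turned to -0.39.

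No gene of the 10 passed an adjusted p of 0.05 in capillary ECs, where 8 passed the filter on low counts and 1 of all 12521 genes was called (0.00799%). At an unadjusted p under 0.05 there were 3 of 8, 1 higher and 2 lower, against 18.2% of all genes. The diets did not overlap for 7, 3 with HFpEF higher (24.7% of all genes) and 4 with HFpEF lower (25.9%). Median log2 fold changes were 0.050 for the 8 genes and -0.0014 for all genes. DESeq2 called 2.26% of 11361 genes and both Ednrb (adjusted p = 0.00173) and Ramp2 (adjusted p = 4.33e-05) among them. Without HFpEF 1, so that HFpEF 2 was the only HFpEF library, Ednrb was at 0.56, Ramp2 at -0.88 and Edn1 at 1.01. Without the filter on low counts Ednrb (adjusted p = 0.00482), Ramp2 (0.000278) and Ace (0.0468) passed, where 734 genes were called. HFpEF libraries had the fewer UMIs per cell and the more erythroid RNA, whose part in these values was not tested beyond leaving out hemoglobin-rich cells, under which none of the 10 genes changed its call.

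**Figure D4:**
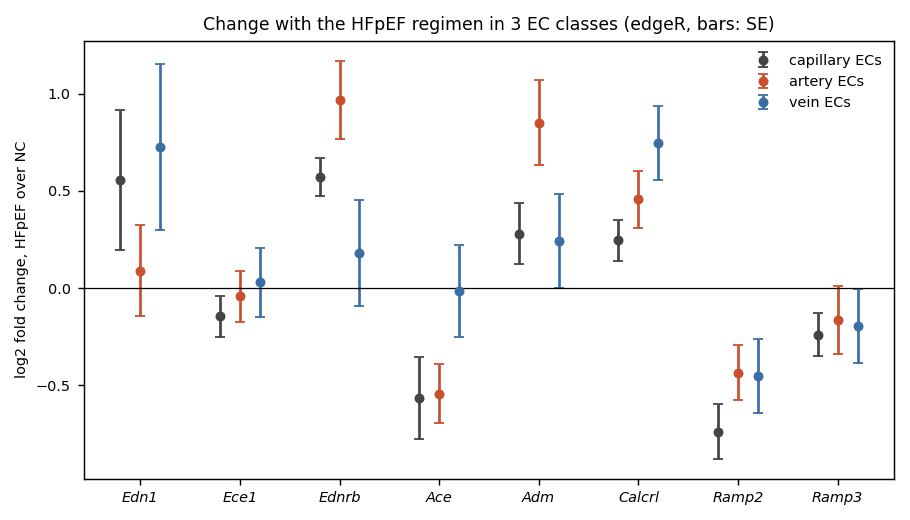
Log2 fold change of HFpEF over NC (points) with its SE (bars) from edgeR in capillary, artery and vein ECs, for the 8 genes tested. Ednrb was highest in artery ECs (0.97 ± 0.20), Calcrl in vein ECs (0.75 ± 0.19), and Ramp2 was below 0 in each class.

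Artery ECs showed the same direction for Ednrb, which rested on 70.2 and 44.9 CPM against 119.9 and 105 CPM under HFpEF. The log2 fold change was 0.97 ± 0.20, a fold of 1.96 (adjusted p = 0.103). Adm was low in arteries but higher in HFpEF, at 26.2 and 34.6 CPM against 21.3 and 14.8 CPM (0.85 ± 0.22, adjusted p = 0.219). Calcrl was at 0.46 ± 0.15 (adjusted p = 0.328), Ramp2 at -0.43 ± 0.14 (0.333) and Ace at -0.54 ± 0.15 (0.271), each with the diets apart. Edn1 did not separate the diets in the artery ECs where it was highest (0.089 ± 0.23, adjusted p = 0.937), nor did Ece1 or Ramp3. None of the 8 genes tested was called, against 0.0390% of 10258 genes, and 5 had an unadjusted p under 0.05, 3 higher and 2 lower, against 9.65%. DESeq2 called none of them, against 1.29% of 1702 genes, and gave no adjusted p for Ednrb, Adm, Calcrl and Ramp3. The libraries of the diets were apart for 3 genes above and 2 below, against 20.3% and 20.4% of all genes. Leaving out NC 1, so that NC 2 was the only NC library, brought Ednrb to 1.31, Adm to 1.12 and Ace to -0.70. Ednrb was at 0.68 without NC 2 and at 0.87 without HFpEF 1. Adm was at 0.95 without HFpEF 1, and Ramp2 at -0.54 without NC 2. Without the filter on low counts, where 178 genes were called, Ednrb (adjusted p = 9.48e-06), Adm (0.0077) and Ace (0.0495) passed. By the per-cell gate Ednrb (0.61, adjusted p = 0.0358) and Ramp2 (-0.72, 0.0382) passed, and at lower clustering resolution Ednrb (1.17, 0.0486). The fit with the replicate block, given further below, passed Ednrb and Adm. The gate counts marker UMIs whatever the depth of a cell. It put 2438 and 2156 NC cells in the artery class and 1833 and 1726 in the capillary class. In HFpEF these were 1013 and 4327 against 2755 and 10301, and the part of depth in the gated fits was not tested.

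In vein ECs Calcrl had the lowest p-value of the 8 genes without passing the test, its 568 and 804 CPM under HFpEF standing against 393 and 437 CPM. Its log2 fold change was 0.75 ± 0.19, a fold of 1.68 (adjusted p = 0.113). It was 0.92 without HFpEF 1, so that HFpEF 2 was the only HFpEF library. Calcrl passed without the filter on low counts (0.72, adjusted p = 0.0235), without doublets (0.78, 0.0406) and by the per-cell gate (1.03, 0.0158). Each of these settings called more genes in all than the 31 of the main fit. The gate, which takes no account of depth per cell, put 78, 85, 51 and 218 cells of NC 1, NC 2, HFpEF 1 and HFpEF 2 in the vein class. Ramp2, the partner of Calcrl, also had the diets apart, at -0.45 ± 0.19 (adjusted p = 0.446). Edn1 was at 0.73 ± 0.43 (adjusted p = 0.617) and depended on HFpEF 1 alone, being at 0.076 without it and at 1.84 without HFpEF 2. Ednrb (0.18 ± 0.27), Adm (0.24 ± 0.24), Ece1 (0.030 ± 0.18), Ace (-0.015 ± 0.24) and Ramp3 (-0.20 ± 0.19) gave adjusted p-values between 0.791 and 0.994. None of 8 genes tested was called, against 0.380% of 8155, and DESeq2 called none, against 0.220% of 3633. An unadjusted p under 0.05 was reached by 2, against 9.53%, and the diets were apart for 2 above and 1 below, against 20% each way.

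Mural cells allowed little. The 1219 mixed mural and endothelial cells, which held 359 UMIs of Ednra and 65 of Agtr1a, were set aside and not tested. In pericyte-like cells only Ednra passed the filter, at -0.22 ± 0.39 (adjusted p = 0.968), where 0.00% of 1526 genes were called, 6.55% had an unadjusted p under 0.05 and DESeq2 called 0.00% of 11635. Ednrb there came from 10 and 23 UMIs in NC and from 2 and 3 in HFpEF, a pooled ratio of 0.287 with a 95% counting interval of 0.0874 to 0.739. The interval covers counting error only, not the spread between libraries. DESeq2 over the libraries gave Ednrb there a log2 fold change of -1.80 ± 1.16 (SE, adjusted p = 0.9996). The direction was opposite to that in capillary and artery ECs, and no difference was called. Agtr1a had a pooled ratio of 1.15 (0.548 to 2.34). Smooth muscle-like cells had 12 cells in the smallest library and were not tested, and their Ednra was at a pooled 139.5 CPM in NC and 183 CPM in HFpEF, a ratio of 1.31 (0.833 to 2.06).

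Whether a class responded unlike capillary ECs was tested by the class-by-diet term, which called none of the 10 genes. Calcrl in vein ECs came nearest, at 0.50 ± 0.14 above its capillary change (adjusted p = 0.0698), where 0.293% of 11276 genes were called. In artery ECs Adm was at 0.73 ± 0.21 (adjusted p = 0.274), Ramp2 at 0.29 ± 0.082 (0.237), Edn1 at -0.49 ± 0.14 (0.274) and Ednrb at 0.37 ± 0.14 (0.61), with 0.147% of 11555 genes called. The Ednrb difference between pericyte-like cells and capillary ECs was -2.49 ± 0.62 (adjusted p = 0.135), with 0.0178% of 11214 genes called. Unadjusted p-values under 0.05 numbered 4 of 8 in artery (6.36% of all genes), 3 of 8 in vein (5.39%) and 2 of 10 in pericyte-like cells (3.17%).

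The order of the diets was also counted in the 19 capillary clusters with at least 20 cells in each library. The clusters share libraries and are given as counts only, not as repeats. The share of all genes was not counted per cluster. In capillary ECs as a class, both HFpEF libraries were above both NC libraries for 24.7% of all genes and below for 25.9%. These shares count genes and are no measure for a count of clusters. For Ednrb the HFpEF values were both above the NC values in 15 of 19 clusters and below in 0. Ramp2 was below in 17 and above in 0, Calcrl above in 14 and below in 1, Adm above in 10 and below in 1, and Ace below in 10 and above in 0. Edn1 was above in 5 and below in 2, Ece1 above in 1 and below in 6, and Ramp3 above in 2 and below in 3. Some of these orders rest on few UMIs. The NC libraries held 2 and 1 UMIs of Ace and 3 and 0 of Adm in the Pycard-led cluster. In the Gsn-led cluster they held 4 and 2 of Ace, 6 and 2 of Ednrb and 2 and 4 of Calcrl.

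Shares of cells with a UMI were compared after each cell was thinned to 1000 UMIs, because of the depth per cell. Cells under 1000 UMIs were left out, so the shares are of the deeper cells. This kept 5387 of 5768 and 4905 of 5189 capillary ECs in NC 1 and NC 2. In HFpEF 1 and HFpEF 2 it kept 3607 of 4454 and 12571 of 17066, so the loss was larger in HFpEF. Ednrb was seen in 11.6% and 11.3% of capillary ECs in NC and in 17.3% and 17.0% in HFpEF, and in 6.02% and 3.76% against 10.1% and 9.61% of artery ECs. Without thinning the capillary order was the reverse, 32.2% and 33.7% in NC against 25.8% and 28.2% in HFpEF, at median depths of 3628 and 3988 against 1686.5 and 1547 UMIs. B cells, which lack Ednrb, held it in 0 of 53 thinned cells, too few to exclude a share as low as the 3.76% of artery ECs. Ramp2 was seen in 63.6% and 58.5% of capillary ECs in NC and in 47.1% and 41.9% in HFpEF, and in 1.89% of B cells. Calcrl was seen in 33.6%, 26.6%, 32.7% and 50.4% of vein ECs of NC 1, NC 2, HFpEF 1 and HFpEF 2, so that HFpEF 1 lay among the NC libraries although its CPM did not. Edn1 was seen in 9.85%, 14.2%, 8.72% and 14.1% of artery ECs and in 1.08% to 2.48% of capillary ECs. In vein ECs the Ednrb shares were apart in the same direction (2.80% and 2.17% against 7.92% and 6.35%) while its CPM overlapped. Shares in all classes are a description and were not tested between the diets.

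**Figure D5:**
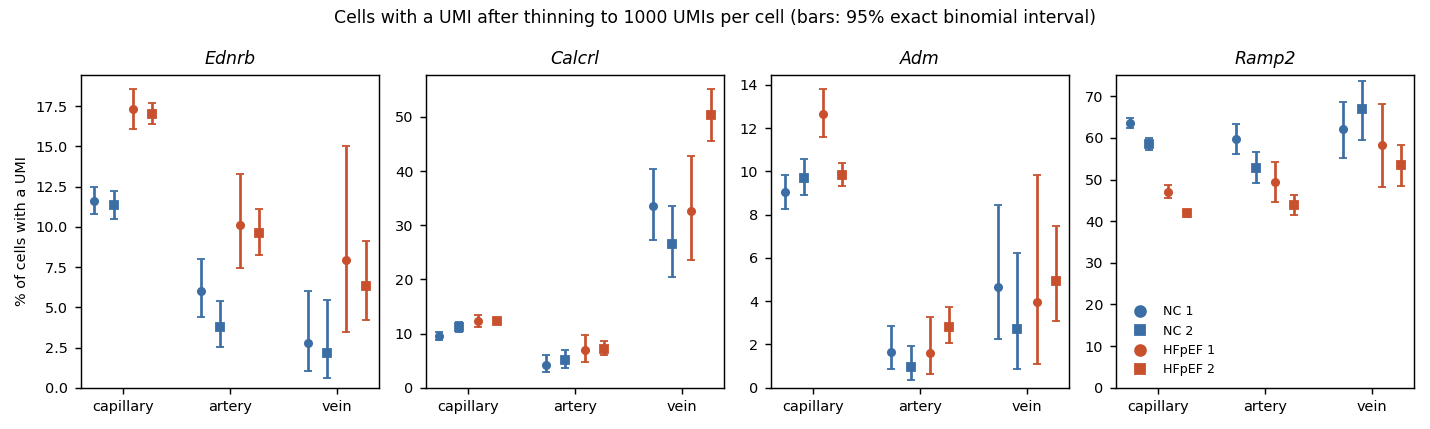
Percent of capillary, artery and vein ECs with a UMI of Ednrb, Calcrl, Adm and Ramp2 in each library (blue NC, orange HFpEF; circles library 1, squares library 2) after thinning to 1000 UMIs per cell, with 95% exact Clopper-Pearson intervals for counting error. Cells under 1000 UMIs were left out. Ednrb was higher (11.6% and 11.3% against 17.3% and 17.0%) and Ramp2 lower in capillary ECs of HFpEF.

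Other genes of the 3 pathways were followed as a list of 26. Of these, 15 were at or under 1 CPM in each of the 5 classes, among them Edn2 and Edn3, the other endothelins, Ren1 (renin), Agtr2, Mas1, Calca and Calcr. A count of 0 allows up to 7.55 CPM in pericyte-like and 5.60 CPM in smooth muscle-like cells, so low levels there are not excluded. Agt, the angiotensin precursor, reached 15.8 CPM in smooth muscle-like cells, and 9 genes exceeded 50 CPM in a class. Several of the 9 were mural. Enpep, the aminopeptidase that trims angiotensin II, was at 361, 204, 88.0 and 186 CPM in pericyte-like cells, and Anpep at 33.9 to 64.2 CPM. Ramp1, the third Calcrl partner, was at 126, 101, 44.1 and 131 CPM in smooth muscle-like cells and at 0 in pericyte-like cells. Ackr3, a scavenger that also takes up adrenomedullin, was at 346 CPM in vein ECs and 154 CPM in capillary ECs on average. Pam, the amidating enzyme that finishes adrenomedullin, was highest in vein ECs, at 104, 109, 149 and 189 CPM. Agtrap, Atp6ap2 and Lnpep were read in every class.

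No gene of that list was called, with 7 tested in capillary, 7 in artery, 5 in vein ECs and 2 in pericyte-like cells. Unadjusted p-values under 0.05 numbered 3, 3, 2 and 0, where the shares of all genes were 18.2%, 9.65%, 9.53% and 6.55%. Bdkrb2, a bradykinin receptor gene, had the lowest p-value of the list in capillary ECs, at a log2 fold change of -1.87 ± 0.44 (adjusted p = 0.147) on levels of 0.239 to 1.30 CPM, and was at -0.89 ± 0.37 (0.472) in artery ECs. Agtrap was at -0.27 ± 0.097 (adjusted p = 0.219) in capillary and -0.48 ± 0.18 (0.441) in artery ECs. Pam had log2 fold changes of 0.63 ± 0.21 in capillary (adjusted p = 0.197), 0.67 ± 0.24 in artery (0.403) and 0.71 ± 0.19 in vein ECs (0.138). In artery ECs only HFpEF 2 (162 CPM) stood above the other libraries (77.2 to 83.5 CPM) for Pam. Median log2 fold changes of the list were 0.13, -0.073, 0.20 and -0.52, while those of all genes lay within 0.0048 of 0. A list of 14 hypoxia-induced genes, of which 13 were in the files, had no call in any of the 4 classes, with 4 of 13, 3 of 12, 1 of 13 and 0 of 3 tested at an unadjusted p under 0.05 (18.2%, 9.65%, 9.53% and 6.55% of all genes) and medians of 0.28, -0.045, 0.14 and 0.082. The 12 immediate early genes had no call either, with 0, 3, 2 and 0 of 12 at such a p, beside the same shares of all genes, and medians of 0.033, -0.15, -0.23 and 0.11.

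Genes whose levels went with those of the 10 were named from 8343 genes over 16 sums, 4 classes in 4 libraries, which share library and depth. Edn1 was nearest to Itpr3 (Pearson r = 0.97, and 0.92 over the 12 EC sums), an inositol trisphosphate receptor, and then to Map7d1. Ace was nearest to Heg1 (0.95, and 0.96), Ednrb to Spred2 (0.88, and 0.97), Adm to Adora2a, an adenosine receptor (0.88, and 0.93), and Calcrl to Cd55 (0.98, and 0.98). For Ece1, Podxl was nearest (0.98, and 0.94). The r was lower over the EC sums for Ednra with Pcdh18 (1.00, and 0.011), Agtr1a with Scn7a (1.00, and 0.67), Ramp2 with Adgrl4 (0.98, and 0.38) and Ramp3 with Rassf9 (0.99, and 0.65).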

How the data were processed

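Left ventricular cells had been sequenced as 4 10x libraries, 2 per diet. The authors aligned reads to mm10 with Cell Ranger 5.0.1 and describe a downsampling by mapped reads per cell toward an aggregated matrix. The deposited UMI counts per gene and cell were not of like depth. The medians were 3754 and 4127 UMIs per kept cell in NC against 1736.5 and 1619 in HFpEF. The 10 genes and all lists were chosen with earlier results of these data known. Named were all 10 genes, the other pathway genes called or above 50 CPM in a class (1 of these is not reported here), and, for likeness, genes among the 3 with the highest Pearson r of log2(CPM + 1) per member (mean of at least 10 CPM). The pathway genes named at or near 0 were added after their values were seen.

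Cells with more than 200 genes and under 20% mitochondrial UMIs were kept and clustered without the 10 genes (Leiden, leidenalg 0.10.2), and clusters were classed from marker levels against the median cluster (log2 difference above 2 for non-endothelial, artery and vein markers, above 3 for lymphatic, endocardial and proliferating markers, and loss of endothelial markers by more than 1.5). Scrublet's own threshold called 0 cells, so its highest-scoring 238 to 3488 cells per library were left out only as an alternative. UMIs were summed per library and class and tested with the edgeR 4.0.16 quasi-likelihood test (TMM scaling, a filter on low counts, Benjamini-Hochberg adjustment, threshold 0.05), with DESeq2 1.42.0, a replicate block, unfiltered counts, thinned cells, a per-cell gate of at least 3 marker UMIs, a lower clustering resolution and each library left out as alternatives. The minimum of 3 UMIs in the gate held for artery, vein and mural cells. Its capillary class needed at least 2 endothelial UMIs and at most 1 artery and 1 vein UMI, and so rests on absent markers. The gate left 12959 cells unassigned. Steps between classes are log2 ratios of CPM with 1 CPM added. The edgeR fits were tested on simulated data. Depth was 10801149 to 47117650 UMIs per library, and intervals cover counting error only. Promoter windows came from RefSeq.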

Additional observations from a re-analysis of the deposited data

Results flagged for a closer look

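Signal of 2 of the genes stood above the compared classes in cells that no comparison used. Ece1 was at 1173 to 1698 CPM in endocardial-like ECs and at 791 to 1042 CPM in lymphatic ECs, above its highest value of 445 CPM in the compared classes. Ace was at 184 to 377 CPM in fibroblast-like cells, against 159 CPM at most in the compared classes.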

How the results depend on the processing

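The number of genes called by diet depended on the setting. With a library left out, the diet of that library was read from 1 library only. Capillary ECs had 1 call, against 257 with DESeq2, 734 without the filter, 98 with the replicate block, 39 thinned, 43 by the per-cell gate and 2 to 593 with a library left out. Artery ECs had 4, against 22, 178, 103, 11, 92 and 22 to 204, with 2 without doublets and 11 at lower resolution. Vein ECs had 31, against 8, 104, 68, 15, 47 and 33 to 117, with 60 both without doublets and at lower resolution. Pericyte-like cells had 0, against 3 without the filter, 2 with the block, 4 by the gate and 0 to 9 with a library left out. Left-out libraries gave 18 to 110 class-by-diet calls for artery (17 in full), 7 to 34 for vein (33) and 0 to 2 for pericyte-like cells (2). Steps above 0 in every library, in the class order of the main values, numbered 20 of 30. They numbered 18 by the per-cell gate and 20 to 23 with a library left out. Steps that turned below 0 in every library are not counted. By the gate these included Ece1 and Ace from artery to vein ECs, and Adm from pericyte-like cells to vein ECs. Member and class pairs with a higher mean share in HFpEF numbered 17 of 40, and 5 without thinning.

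Directions turned for Edn1 (-0.044) and Ramp3 (0.095) in artery ECs at lower resolution, for Ece1 thinned (0.081 in artery, -0.058 in vein), and in vein ECs for Ace (0.017 with the block, 0.013 without doublets, 0.36 by the gate) and Ramp3 (0.25 by the gate). With a library left out, ranges crossed 0 for Edn1 in capillary (-0.39 to 1.01) and artery ECs (-0.54 to 0.43), Ece1 in artery (-0.15 to 0.071) and vein (-0.026 to 0.075), Ramp3 in artery (-0.38 to 0.070), Ace in vein (-0.44 to 0.26) and Ednra in pericyte-like cells (-0.72 to 0.25). The cause was not tested.

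Deviations of same-numbered libraries were near uncorrelated, with r of 0.03 in capillary, 0.03 in artery, -0.01 in vein ECs and 0.02 in pericyte-like cells. The labels do not say what a number marks, so a pairing was not established. An r over all genes tested cannot exclude a shared factor that acts on few genes. Scarb1 was nevertheless higher in the library numbered 1 in capillary, artery and vein ECs of both diets. With the replicate block Ednrb (1.03, adjusted p = 0.000244) and Adm (0.88, 0.0443) passed in artery ECs. Alternatives for smooth muscle-like cells were not run. Depth limits mural values, with 37 UMIs of Agtr1a and 79 of Ednra in pericyte-like cells.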

Other observations

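Endocardial-like ECs, 27 to 101 cells per library, held Edn1 at 125, 258, 87.3 and 366 CPM and Ednrb at 224, 156, 274 and 318 CPM in NC 1, NC 2, HFpEF 1 and HFpEF 2. Lymphatic ECs, 12 to 54 cells per library, held Calcrl at 422, 402, 400.4 and 509 CPM, and Ramp2 at 2511, 1397, 915 and 839.8 CPM. Proliferating ECs, 4 to 33 cells per library, held Adm at 158 to 374 CPM. T or NK cells held 36 Ramp3 UMIs of 159945, which is 225 CPM.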
